A study of Mus musculus with 22 samples.

Results

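The nuclear genes for subunits of 4 mitochondrial enzyme complexes were followed in biopsies of mouse primary motor cortex (M1). Genes were taken by symbol, with names that begin Nduf followed by a, b, c, s or v and a number (complex I), Sdha to Sdhd (complex II), Cox4 to Cox8 (complex IV) or Atp5 (complex V), and the reads of all features annotated to a symbol were added. The rule found 74 of the 15297 genes in the table: 37 for complex I, 4 for complex II, 16 for complex IV and 17 for complex V. It takes 5 genes with another or a later-assigned role, namely Ndufa4, now placed in complex IV, its paralogue Ndufa4l2, Cox7a2l, a factor of supercomplex assembly, and Atp5s and Atp5sl, which are not parts of the ATP synthase in the current nomenclature. BERKO mice, which lack oestrogen receptor beta (ERb-/-, the gene Esr2), were compared with wild-type (WT) mice. All were C57BL/6 males aged 16 to 20 weeks, and a needle biopsy was taken from the right and the left M1 of each. The biopsies used here came from 5 BERKO and 6 WT mice, 22 in all, and each gave 10 ng of RNA to STRT, a method that counts reads at the 5′ end of polyadenylated RNA. The right and left counts of a mouse were added for the comparison of genotypes, and were kept apart for that of sides. The labels name the mouse of each biopsy, and the column of each mouse was found by the number in the column name. BERKO left 5 has counts from 1 sequencing lane and the other libraries from 3.

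Oxidative phosphorylation passes electrons from NADH through complex I, and from succinate through complex II, to ubiquinone, then through complex III and cytochrome c to complex IV, which reduces oxygen. Complexes I, III and IV pump protons across the inner mitochondrial membrane, and complex V, the ATP synthase, uses the return flow to make ATP. All complex II subunits, and most of those of the other complexes, are encoded in the nucleus, and firing neurons depend on this supply of ATP to run their ion pumps.

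Gene reads per mouse numbered 968219 to 1626675 in BERKO mice and 1353208 to 2722667 in WT mice, and per biopsy 239058 to 1893400. They are reads after PCR, so counting error is only part of the error. Esr2 had reads in 3 of the 22 biopsies (3 in WT right 1, 6 in BERKO left 3 and 4 in BERKO left 5), so the genotype labels could not be checked from it. The right and left libraries of WT mouse 1 and the left library of WT mouse 2 stood apart on the first principal component of 8308 genes (11.6% of the variance; scores of -48.9, -61.8 and -57.7, against -15.15 to 29.89 in the other libraries), and values without them are given where that moves a result. The labels place the samples in the wells of a plate, and the column names carry codes that read like wells. If they are, each row of the plate holds a single genotype and side, and row, genotype and side cannot be told apart. Markers of cortical excitatory neurons were present in every mouse, at a summed level of 4547 ± 777 CPM in BERKO mice and 2960 ± 818 CPM in WT mice (SD, n = 5 and 6). Of the lists of cell type markers, only the microglial one had sums per mouse that did not overlap between genotypes. They were 775 to 949 CPM in BERKO mice and 435 to 769 CPM in WT mice. Of single genes tested, 1.32% did not overlap. By side, endothelial sums on the left and those of pericytes and smooth muscle on the right were higher in BERKO mice without overlap. Microglial sums did not overlap on the left and overlapped on the right. None of the listed cell type marker genes passed the edgeR test, and their part in the results below was not tested. In bulk tissue, fewer cells of a type and less RNA per cell cannot be told apart.

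The letters around the transcript starts are shown for members with a short word bound by NRF1 or YY1, known regulators of mitochondrial genes. For YY1 these are the members with the word after the start. Shown in full are the 3 members with the NRF1 word that are also among those with the smallest p-values between genotypes. Windows of 250 bases before and 50 bases after the start were taken from RefSeq (build GRCm38.p6, not the mm9 build of the counts), and 63 of the 74 members matched, 3 of them by a synonym. The word of nuclear respiratory factor NRF1, GCGCATGC, was searched on both strands, and overlaps its own complement in GCGCATGCGC. It was found in 8 of the 63 members (12.7%), against 3.94% of all coding genes in the table. The 250 bases before the start follow for Atp5k, Ndufa6 and Cox6a1, with the NRF1 word in capitals, 5′ to 3′.
Atp5k, chr5:108434400-108434649, minus strand: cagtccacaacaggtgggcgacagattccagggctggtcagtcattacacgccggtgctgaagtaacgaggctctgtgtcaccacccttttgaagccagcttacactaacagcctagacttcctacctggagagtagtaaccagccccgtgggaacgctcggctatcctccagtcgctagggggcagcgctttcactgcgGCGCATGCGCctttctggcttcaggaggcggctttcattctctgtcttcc
Ndufa6, chr15:82354292-82354541, minus strand: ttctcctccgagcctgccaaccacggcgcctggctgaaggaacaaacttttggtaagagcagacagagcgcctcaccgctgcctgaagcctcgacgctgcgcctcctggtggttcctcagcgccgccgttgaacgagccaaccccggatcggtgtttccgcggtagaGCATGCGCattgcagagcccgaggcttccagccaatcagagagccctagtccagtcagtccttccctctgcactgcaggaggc
Cox6a1, chr5:115348959-115349208, minus strand: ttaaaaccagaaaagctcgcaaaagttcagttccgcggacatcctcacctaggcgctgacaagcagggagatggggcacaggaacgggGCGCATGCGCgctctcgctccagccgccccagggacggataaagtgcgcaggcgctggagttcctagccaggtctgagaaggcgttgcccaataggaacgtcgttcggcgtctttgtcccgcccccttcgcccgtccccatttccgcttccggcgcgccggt

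The other 5 members with the NRF1 word are shown by the 30 bases around it, the word in capitals.
Atp5g2, chr15:102671070-102671099, minus strand: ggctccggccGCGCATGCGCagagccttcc
Atp5l, chr9:44920963-44920992, minus strand: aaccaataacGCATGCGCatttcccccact
Ndufa11, chr17:56717692-56717721, plus strand: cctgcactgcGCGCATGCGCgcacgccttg
Ndufa8, chr2:36049328-36049357, minus strand: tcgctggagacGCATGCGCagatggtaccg
Sdhb, chr4:140961206-140961235, plus strand: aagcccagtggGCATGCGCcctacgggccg

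The word of YY1, AAGATGGC, a factor known to regulate mitochondrial genes with the co-activator Ppargc1a, was found in 11 of the 63 members (17.5%), against 3.57% of coding genes. In 9 of them, 7 complex I genes with Atp5j2 and Atp5sl, it lay on the coding strand at 22 to 38 bases after the start, and these 9 stretches are shown with the word in capitals.
Atp5j2, chr5:145191500-145191529, minus strand: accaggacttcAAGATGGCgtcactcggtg
Atp5sl, chr7:25619429-25619458, plus strand: cgttacctggcAAGATGGCggcgcccagag
Ndufa3, chr7:3617384-3617413, plus strand: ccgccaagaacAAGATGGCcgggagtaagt
Ndufa9, chr6:126849097-126849126, minus strand: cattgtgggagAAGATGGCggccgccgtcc
Ndufb8, chr19:44555393-44555422, minus strand: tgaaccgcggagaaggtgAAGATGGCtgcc
Ndufc1, chr3:51408915-51408944, minus strand: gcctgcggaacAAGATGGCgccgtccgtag
Ndufs4, chr13:114388045-114388074, minus strand: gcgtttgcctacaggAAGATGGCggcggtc
Ndufs6, chr13:73328433-73328462, minus strand: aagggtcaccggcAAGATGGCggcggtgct
Ndufs7, chr10:80249462-80249491, plus strand: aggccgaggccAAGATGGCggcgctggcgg
The word of the oestrogen-related receptors, TCAAGGTCA, was found in 2 members (3.17%, against 0.377% of coding genes), in Atp5g3 and Sdhd. The word of the ETS factors, CCGGAAGT, was found in Atp5h, Cox8a and Ndufs3 (4.76%, against 5.69%). None of the 63 members held more than 1 of the 4 kinds of word, and 39 held none. A match is a match of letters and no more.

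Subunit genes were among the most abundant transcripts of the biopsies. Together the 74 took 5.46% of all gene reads. Levels are given as CPM (reads of a gene scaled to a common total of gene reads), not divided by transcript length, because a 5′-end method counts a transcript once. The median member had 539 CPM, against 30.8 CPM for the 9025 genes tested between genotypes per mouse. Of the 74, 13 stood among the 100 most abundant genes tested, and 9 were under 100 CPM. Complex IV took 37.7% of the members' reads, complex I 37.5%, complex V 22.3% and complex II 2.51%. The complex totals here and below follow the symbol rule, so Ndufa4, now placed in complex IV, is counted under complex I. The reads of complex IV lay in fewer genes than those of complexes I and V: Cox8a and Cox6a1, small structural subunits of cytochrome c oxidase, had 4252 and 4179 CPM, and with Cox6c they held 55.4% of its reads. In complex I, the 3 highest genes (Ndufa4, 2184 CPM; Ndufb8, 1771 CPM; Ndufb9, 1401 CPM) held 26.2%. In complex V, Atp5g3, 1 of 3 genes for the proton-carrying c ring, Atp5b, the catalytic beta subunit, and Atp5l, a membrane subunit, held 39.9%.

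**Figure D1:**
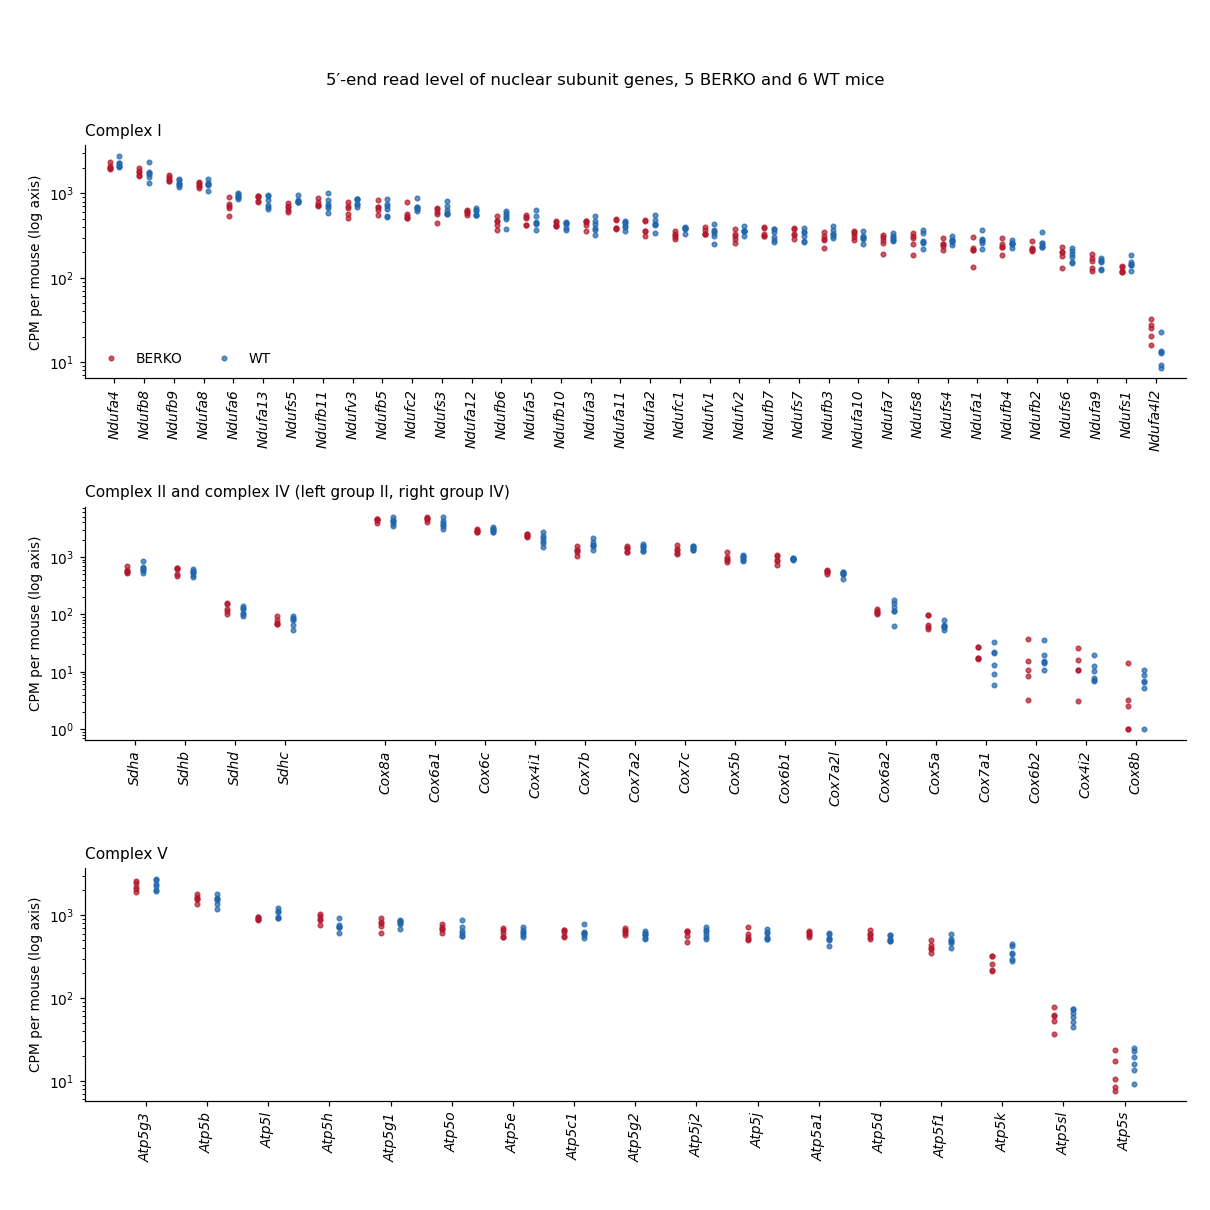
Level of 73 of the 74 subunit genes in each mouse (points; CPM on a log axis, values under 1 drawn at 1), by complex and ordered by mean, with BERKO and WT mice in different colours. Cox8a and Cox6a1 are highest at over 4000 CPM on average and Cox8b is lowest, and the colours lie over each other for most genes.

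Within complex I the 7 core subunit genes, which hold the flavin and iron-sulfur clusters, were measured at 138 to 619 CPM and the 28 accessory ones at 151 to 1771 CPM. The genes of complex II ranged from 616 CPM for Sdha, the flavoprotein, to 76.2 CPM for Sdhc, a membrane anchor. The median coefficient of variation of a member between mice was 12.5% in BERKO mice and 14.1% in WT mice.

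Members that come as pairs of isoforms were measured almost wholly from the broadly expressed gene. Cox4i2, which in other tissues is a lung and low-oxygen isoform, made 0.557 ± 0.357% of the Cox4i1 and Cox4i2 reads in BERKO mice and 0.530 ± 0.203% in WT mice (SD, n = 5 and 6). Cox6a2, the heart and muscle isoform, made 2.35 ± 0.20% of its pair in BERKO mice and 3.20 ± 1.01% in WT mice. Cox7a1, also a muscle isoform, made 1.52 ± 0.43% of the Cox7a1 and Cox7a2 reads in BERKO mice and 1.16 ± 0.62% in WT mice. Cox8b, another muscle isoform, was at the limit of detection, with 14.5, 0, 0.77, 3.16 and 2.51 CPM in BERKO mice 2 to 6 and 0, 6.84 and 10.9 CPM as the lowest, median and highest of WT mice. The groups overlapped for each of these 4 genes. The c ring genes encode the same mature protein with different import sequences, and of their reads Atp5g3 made 61.2 ± 3.14% in BERKO mice and 62.7 ± 2.18% in WT mice, Atp5g1 21.4 ± 2.60% and 21.8 ± 1.32%, and Atp5g2 17.4 ± 1.25% and 15.6 ± 1.31%.

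Nearly all of these reads lay where a 5′-end method should put them. Of the members' reads, 96.1% fell in features annotated as 5′ UTR or upstream, against 81.8% for all genes, and 3.88% in coding sequence or 3′ UTR, against 16.0%. Complex IV was highest with 98.9% and complex II lowest with 92.1%. By annotation Ndufa12 was the exception, with its reads in features of coding sequence or 3′ UTR. Of its reads, 97.8% lay in the first of these features in the direction of the gene. Shares in coding sequence or 3′ UTR were also above the members' average for Ndufa10 (32.5%), Atp5a1 (27.6%), Ndufa9 (23.6%), Sdhc (22.7%), Ndufv1 (18.9%) and Atp5b (18.6%). The members' share was 4.33 ± 0.43% in BERKO mice and 3.64 ± 0.63% in WT mice (SD, n = 5 and 6). With features annotated as 5′ UTR or upstream alone, 45 of 73 members were higher in BERKO mice, against 33 of 74 with all features. The part of this shift in the small differences below was not tested.

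Between the genotypes, no subunit gene passed the test. In edgeR's quasi-likelihood test over all 9025 genes that passed the filter, 7 genes had an adjusted p under 0.05 (0.0776%), and 0 of the 74 members did. DESeq2 also called 0 of the members. At an unadjusted p under 0.05 there were 9 members in edgeR (12.2%; 3 higher and 6 lower in BERKO mice), against 9.92% of all genes tested, and 10 in DESeq2. The edgeR count was 4 without BERKO mouse 5 and 5 without BERKO mouse 2. The members' median log2 change, BERKO over WT, was -0.03, against -0.01 for all genes tested, with 33 members above 0 and 41 below. Leaving out the 3 libraries that stood apart, 23 members were above 0 and 50 below, at a median of -0.05 against -0.01 for all genes; in complex I, 8 of 37 were then above 0, against 17. The medians were -0.02 for complex I, 0.02 for complex II, -0.02 for complex IV and -0.03 for complex V. All 74 members passed the filter on low counts.

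These genes were measured more tightly than most genes tested, so that large differences are bounded. Of all genes tested, 78.9% were under 100 CPM, against 9 of the 74 members, and no comparison matched by level was made. The median standard error was 0.131 on the log2 scale, against 0.328 for all genes tested. The 95% interval of the change lay within a 2-fold difference either way for 68 of the 74 members (91.9%, against 51.3% of all genes tested) and within 1.5-fold for 62 (83.8%, against 20.0%). The 6 whose intervals reached beyond 2-fold were genes of low level: Atp5s, Cox4i2, Cox6b2, Cox7a1, Cox8b and Ndufa4l2.

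**Figure D2:**
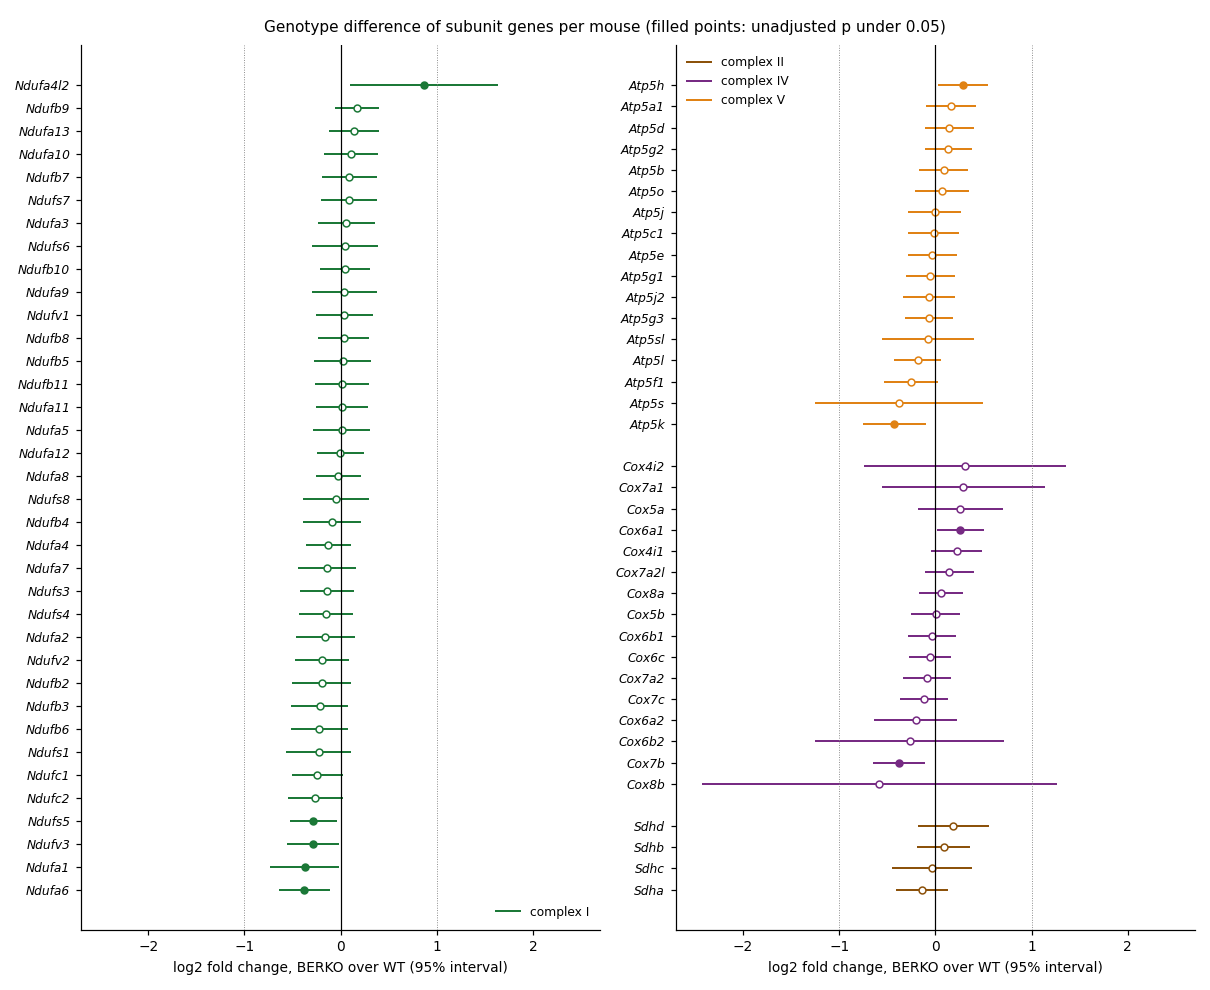
Log2 change between BERKO and WT mice for 73 of the 74 subunit genes (x axis; above 0 is higher in BERKO mice) with its 95% interval (bars), by complex; filled points have an unadjusted p under 0.05 and dotted lines mark a 2-fold difference. For all but 6 of the genes drawn the interval lies between the dotted lines, and none of the 9 filled points passed the adjusted threshold.

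Of the complex I genes with an unadjusted p under 0.05, 4 are accessory subunits, and all 4 were lower in BERKO mice. Ndufa6, which carries an acyl carrier protein on the matrix arm, had 671.8, 749.6, 710.7, 542.8 and 918.3 CPM in BERKO mice 2 to 6 and 847.3, 925.9 and 1005 CPM as the lowest, median and highest of the 6 WT mice. BERKO mouse 6 alone lay within the WT range. Its log2 change was -0.38 ± 0.13 (SE; edgeR adjusted p = 0.314).
Ndufs5, a subunit on the outer face of the membrane arm, had 639.9, 713.1, 683.9, 597.5 and 777.8 CPM in BERKO mice and 785.0, 801.1 and 966.9 CPM as the lowest, median and highest in WT mice. It was the 1 member of 74 (1.35%) whose groups did not overlap, against 1.32% of all genes tested. Its log2 change was -0.28 ± 0.12 (edgeR adjusted p = 0.419).
Ndufv3, a small subunit at the NADH-oxidising tip, had 781.5, 705.3, 565.2, 507.1 and 678.1 CPM in BERKO mice and 691.1, 799.3 and 849.7 CPM as the lowest, median and highest in WT mice. The groups overlapped, through BERKO mice 2 and 3, and the log2 change was -0.29 ± 0.13 (edgeR adjusted p = 0.444).
Ndufa1, an X-linked membrane subunit needed to build the complex, had 211.8, 301.5, 212.1, 133.6 and 225.8 CPM in BERKO mice and 221.1, 275.0 and 371.5 CPM as the lowest, median and highest in WT mice. The groups overlapped, with BERKO mouse 3 above the WT median and BERKO mouse 5 the lowest of all. Ndufa1's log2 change was -0.37 ± 0.17 (edgeR adjusted p = 0.468).

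Ndufa4l2 was the member with the largest log2 change, and at a low level. It is a paralogue of Ndufa4 that low oxygen induces through HIF1 in other cells, and in mouse brain it is known from pericytes. It had 25.1, 32.9, 20.7, 15.8 and 27.6 CPM in BERKO mice and 8.58, 13.1 and 22.8 CPM as the lowest, median and highest in WT mice. The highest WT mouse overlapped BERKO mice 4 and 5. The log2 change was 0.87 ± 0.37 (SE; edgeR adjusted p = 0.429), and Ndufa4l2 made 1.15 ± 0.27% of the Ndufa4 and Ndufa4l2 reads in BERKO mice and 0.594 ± 0.23% in WT mice. Beside it, the summed level of 12 pericyte and smooth muscle genes, listed after these values had been seen, was 380 to 747 CPM in BERKO mice and 220.5 to 440 CPM in WT mice. Of the 12, 8 could be tested, 6 of them higher in BERKO mice; Rgs5 was the 1 with an unadjusted p under 0.05, and Abcc9 and Anpep were at 0. The log2 ratio of these sums, BERKO over WT, was 0.59 on the right, without overlap, and 0.31 on the left, with overlap. The log2 change of Ndufa4l2 was 1.58 on the left. On the right no complex I gene, Ndufa4l2 included, was above 0.32. The part of pericytes and smooth muscle in the value of Ndufa4l2 was not tested.

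None of the 4 complex II genes had an unadjusted p under 0.05. Sdhb, the iron-sulfur subunit, had 618.5, 632.4, 509.3, 457.6 and 629.8 CPM in BERKO mice and 440.2, 551.8 and 613.6 CPM as the lowest, median and highest in WT mice. BERKO mice 2, 3 and 6 were above the highest WT mouse and the others within the WT range. The ranges also overlapped for Sdha, Sdhc and Sdhd. Summed, the complex II genes had 1359 ± 129 CPM in BERKO mice and 1371 ± 169 CPM in WT mice (SD, n = 5 and 6).

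Complex IV had 1 gene on each side at an unadjusted p under 0.05, neither past the adjusted threshold. Cox7b, a small X-linked membrane subunit, had 1331, 1325, 1050.0, 1207 and 1521 CPM in BERKO mice and 1295, 1625 and 2112 CPM as the lowest, median and highest in WT mice. BERKO mice 2, 3 and 6 lay within the WT range and below its median. Its log2 change was -0.38 ± 0.13 (SE; edgeR adjusted p = 0.314).
Cox6a1, the broadly expressed isoform of its pair, had 4819, 4506, 4894, 4627 and 4117 CPM in BERKO mice and 3047, 3697 and 4926 CPM as the lowest, median and highest in WT mice. All BERKO mice lay within the WT range and above its median. Cox6a1 had a log2 change of 0.26 ± 0.11 (edgeR adjusted p = 0.447). Leaving out the 3 libraries that stood apart it was 0.17, and the unadjusted p was no longer under 0.05.

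In complex V the pair of genes with an unadjusted p under 0.05 also went opposite ways. Atp5k, a membrane subunit at the interface of ATP synthase dimers, had 326.0, 216.5, 214.4, 319.8 and 260.3 CPM in BERKO mice and 282.3, 344.5 and 455.2 CPM as the lowest, median and highest in WT mice. BERKO mice 2 and 5 lay within the WT range. The log2 change was -0.43 ± 0.16 (SE; edgeR adjusted p = 0.360).
Atp5h, a subunit of the peripheral stalk that holds the catalytic head still, had 1024, 901.8, 768.9, 983.6 and 868.7 CPM in BERKO mice and 607.3, 724.5 and 928.6 CPM as the lowest, median and highest in WT mice. All BERKO mice were above the WT median, and 3 of them below the highest WT mouse. The log2 change was 0.29 ± 0.12 (edgeR adjusted p = 0.429). Leaving out the 3 libraries that stood apart it was 0.21, again with an unadjusted p no longer under 0.05.

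**Figure D3:**
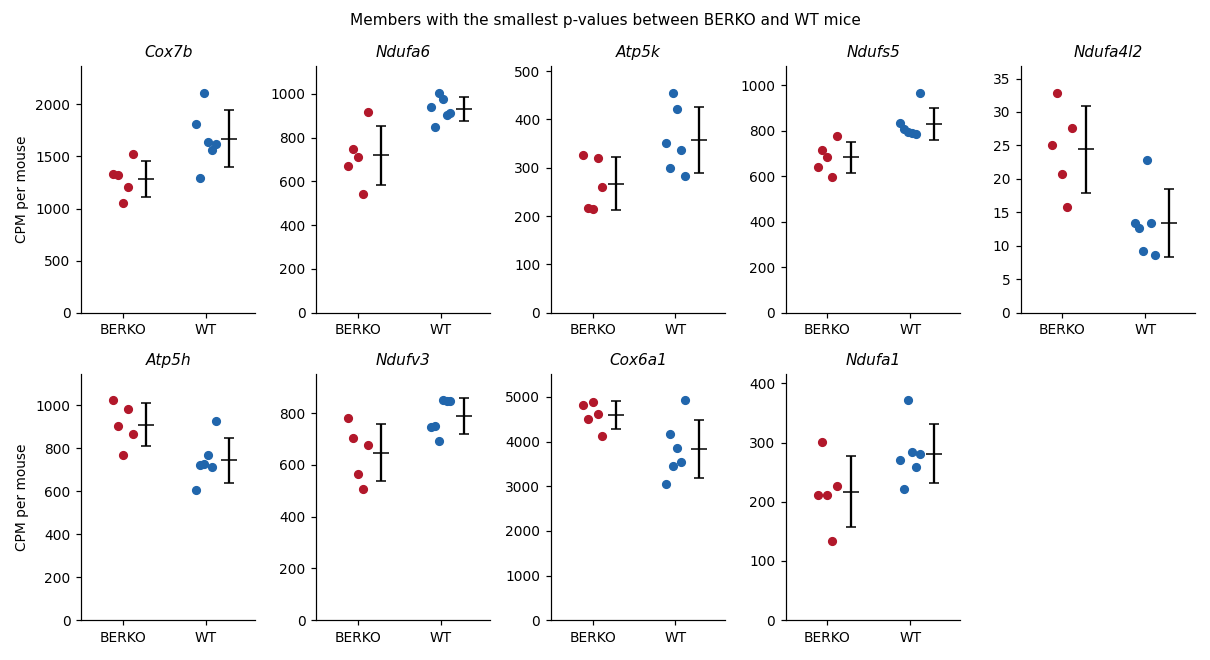
CPM per mouse for the 9 subunit genes with an unadjusted p under 0.05 between genotypes (1 panel each, BERKO mice left of WT mice; black marks and bars are the mean ± SD). Ndufs5 is the only one of the 9 in which the BERKO and WT mice do not overlap.

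Reads of several of these genes could have been shared with near-identical copies, since how reads with several matches were treated is unknown from the files and labels. At 95% identity over at least 100 bases, 24 of the 74 members had a matching stretch in another annotated gene. Among those with an unadjusted p under 0.05 these were Cox7b (241 bases of Gm19503 at 96.7%), Atp5k (210 bases of Atp5k-ps2 at 95.7%), Ndufs5 (319 bases of BC002163 at 99.4%) and Atp5h (486 bases of Gm5051 at 95.1%), and their values are uncertain to that extent. The same holds for Atp5g1 (411 bases of Gm10039 at 99.8%) and Atp5g2 (645 bases of Gm10175 without a mismatch), and so for the c ring shares above, and for Atp5l, Cox6c, Cox7c, Ndufa12, Ndufb8 and Ndufb9. The match began within 20 bases of the transcript start for 7 members, Atp5g1, Atp5g2 and Atp5h among them. Ndufa6, Ndufv3, Ndufa1, Ndufa4l2, Cox6a1 and the complex II genes had no such stretch.

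Grouped by role, the summed levels overlapped between genotypes in all but 1 of the groups. The groups were formed with earlier results known, and no share without overlap was computed for sums of other genes. Among single genes tested, 1.32% did not overlap. Core subunits of complex I summed to 2240 ± 236 CPM in BERKO mice and 2342 ± 273 CPM in WT mice, and accessory ones to 15589 ± 1232 and 16213 ± 1063 CPM (SD, n = 5 and 6). The broadly expressed complex IV genes summed to 20129 ± 796 CPM in BERKO mice and 19545 ± 1778 CPM in WT mice. In complex V the catalytic head summed to 4014 CPM in BERKO mice and 3817 CPM in WT mice, the c ring to 3664 and 3735 CPM, and the peripheral stalk to 2602 and 2487 CPM. The small membrane subunits of complex V (Atp5j2, Atp5k and Atp5l) shape the dimer and its place in the membrane. Summed, they had 1596 to 1844 CPM in BERKO mice and 1901 to 2088 CPM in WT mice. These sums did not overlap, though each of the 3 genes did on its own, and the median log2 change was -0.19. The median was 0.02 with scaling to the spike-ins, which moved all genes to a median of 0.19, so that relative to all genes it was -0.17, against -0.18 in the test as reported. From 5′ UTR and upstream features alone it was -0.08.

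Whole complexes differed by less than the spread between mice. Complex I summed to 19934 ± 1583 CPM in BERKO mice and 20838 ± 1544 CPM in WT mice, complex IV to 20850 ± 830 and 20228 ± 1835 CPM, and complex V to 12126 ± 828 and 12131 ± 967 CPM (SD, n = 5 and 6). All members together summed to 54269 ± 2939 CPM in BERKO mice and 54567 ± 4286 CPM in WT mice, a log2 ratio of -0.008, and the ranges overlapped for each complex.

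The mitochondrial chromosome encodes the remaining subunits of complexes I, IV and V, and its reads were lower in BERKO mice. Single subunits could not be read, nor subunit genes told from other genes of this chromosome, since its 19 features carry no gene names. Their share of reads was 0.839 ± 0.096% in BERKO mice (0.694 to 0.920%) and 1.70 ± 0.247% in WT mice (1.38 to 1.97%; SD, n = 5 and 6), and the groups did not overlap. The difference was -0.860 percentage points (exact two-sided permutation test over 462 splits, p = 0.00433, the smallest the test can give here). On the right the difference was -0.927 points (exact permutation p = 0.00433), and on the left -0.763 points (exact permutation p = 0.00866), where the groups overlapped. Leaving out the 3 libraries that stood apart, it was -0.842 points per mouse (exact permutation p = 0.00794). Beside it, the share of all reads, without spike-in and ribosomal ones, that lay in coding sequence or 3′ UTR is given. On the right it was 18.4 ± 1.91% in BERKO mice and 13.8 ± 2.02% in WT mice, without overlap (SD). On the left it was 16.2 ± 1.44% and 13.7 ± 2.81%, with overlap. The part of that share, or of the position on the plate, in the mitochondrial difference was not tested.

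**Figure D4:**
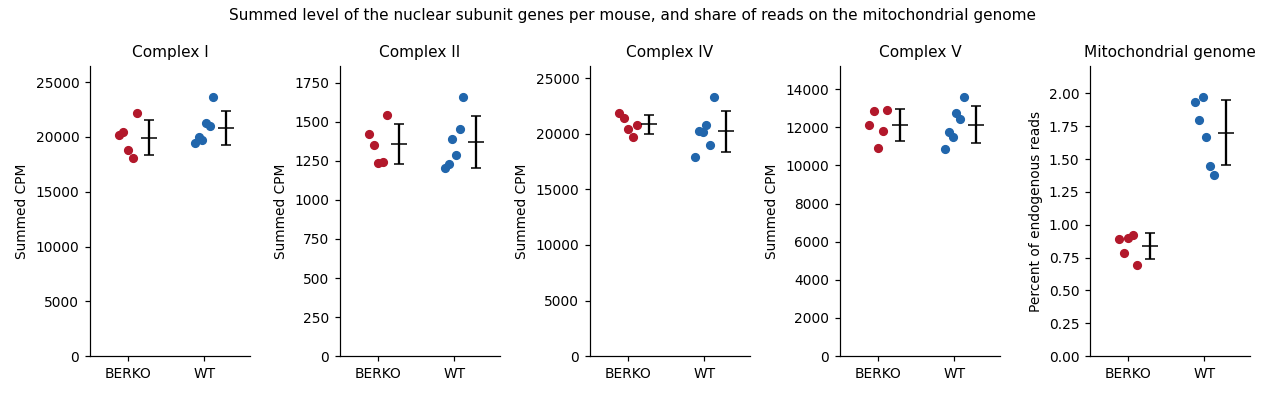
Summed CPM of the subunit genes of each complex, and the mitochondrial chromosome's share of reads in percent, per mouse (points, BERKO left of WT; black marks and bars are the mean ± SD). The sums of the nuclear genes overlap between genotypes in every complex, whereas the mitochondrial shares lie at 0.694 to 0.920% in BERKO mice and 1.38 to 1.97% in WT mice.

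The features of each gene were also tested singly. Of 149 member features tested, 0 passed the adjusted threshold in edgeR, against 0.114% of all 13128 features, and 17 had an unadjusted p under 0.05 (11.4%, against 11.6% of all features); DESeq2 was not run on features. The smallest adjusted p belonged to a coding feature of Ndufa10, a complex I accessory subunit, that held 4.10% of the gene's reads (log2 change 1.66 ± 0.43, SE; edgeR adjusted p = 0.149).

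On the right side, the comparison of BERKO with WT biopsies called 5 of 7696 genes (0.065%) and 0 of the 73 members tested. At an unadjusted p under 0.05 there were 5 members (6.85%), against 8.25% of all genes tested, with a median log2 change of -0.01 over the members. There were 3 when WT mouse 1, WT mouse 5, BERKO mouse 2 or BERKO mouse 4 was left out, and 2 in the fit with the mouse number as a block. No member's groups failed to overlap, against 0.975% of all genes tested. Atp5k had 278.1, 197.3, 192.1, 370.2 and 293.6 CPM in right biopsies of BERKO mice 2 to 6 and 315.3, 360.1 and 498.6 CPM as the lowest, median and highest of WT mice. BERKO mouse 5 alone reached into the WT range, and the log2 change was -0.52 ± 0.19 (SE; edgeR adjusted p = 0.480). Cox4i1, the main isoform of the largest nuclear subunit of complex IV, had 2469, 2178, 2253, 2321 and 2550 CPM on the right in BERKO mice and 1355, 1863 and 2235 CPM as the lowest, median and highest of WT mice. BERKO mouse 3 alone was below the highest WT biopsy. Its log2 change was 0.35 ± 0.15 (edgeR adjusted p = 0.514).

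On the left side 0 of 6616 genes (0.0%) and 0 of 73 members passed the adjusted threshold in edgeR. At an unadjusted p under 0.05 there were 8 members (10.96%; 1 higher and 7 lower in BERKO mice), against 6.76% of all genes tested. DESeq2 was not run by side. The members' median log2 change was -0.09, with 53 of 73 below 0, and that of complex I was -0.16, with 29 of 37 below 0. Over all genes tested on the left the median was -0.000795, with 50.2% below 0. Without the left libraries of WT mice 1 and 2 the members' median was -0.14. In 4 of the 73 (5.48%), against 1.06% of all genes tested, the groups did not overlap. The 4 were the complex I accessory genes Ndufa1, Ndufa6, Ndufs5 and Ndufv3, lower in BERKO mice each time. Ndufa6 had 606.9, 729.6, 587.6, 632.4 and 776.8 CPM in left biopsies of BERKO mice 2 to 6 and 812.0, 963.8 and 1238 CPM as the lowest, median and highest of WT mice, a log2 change of -0.59 ± 0.16 (SE; edgeR adjusted p = 0.489). Ndufa1 had 201.8, 250.2, 229.7, 216.2 and 227.8 CPM in BERKO mice and 276.3, 343.2 and 439.9 CPM in WT mice, given likewise, a log2 change of -0.63 ± 0.19 (edgeR adjusted p = 0.568). Ndufa4l2 stood on the other side of 0, with 29.8, 48.7, 35.3, 16.3 and 40.7 CPM in BERKO mice and 2.9, 11.3 and 21.9 CPM as the lowest, median and highest of WT mice, a log2 change of 1.58 ± 0.55 (edgeR adjusted p = 0.618). The biopsies of BERKO and WT mice overlapped for it through BERKO mouse 5, whose left library has counts from 1 lane and the fewest gene reads (239058).

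Right and left biopsies of the same mice were then compared, with the mouse as a block. Of 8308 genes 0 passed the adjusted threshold (0.0%) in edgeR, and 0 of the 73 members. At an unadjusted p under 0.05 there were 4 members (5.48%), against 5.57% of all genes tested. Sdhd, a membrane anchor of complex II, had 106.7, 66.2, 92.0, 112.3 and 158.0 CPM on the right and 193.3, 195.0, 117.1, 110.2 and 162.9 CPM on the left of BERKO mice 2 to 6. In WT mice it had 61.2, 98.7 and 136.9 CPM as the lowest, median and highest on the right and 97.4, 131.5 and 197.7 CPM on the left. Its log2 change, right over left, was -0.49 ± 0.18 (SE; edgeR adjusted p = 0.735). Cox7c, a small complex IV subunit, was higher on the right in all BERKO mice, with 1786, 1488, 1191, 1417 and 1325 CPM on the right and 1465, 1199, 1051, 864.9 and 811.5 CPM on the left. In WT mice it was higher on the right in 3 of 6, with 1306, 1438 and 1593 CPM as the lowest, median and highest on the right and 948.3, 1399.7 and 1594 CPM on the left. The log2 change of Cox7c over both genotypes was 0.26 ± 0.11 (edgeR adjusted p = 0.744). Ndufa1 was lower on the right in 3 of 5 BERKO mice and 6 of 6 WT mice (-0.37 ± 0.14 over both genotypes; edgeR adjusted p = 0.735). Over all members, the median log2 change was -0.03, against 0.05 for all genes tested.

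The genotypes differed a little in how the sides compared, within the spread between mice. Summed over the members, the log2 ratio of right to left averaged 0.037 ± 0.073 in BERKO mice, with the right higher in 3 of 5, and -0.112 ± 0.195 in WT mice, with the right higher in 1 of 6 (SD). For complex I it averaged 0.032 ± 0.072 in BERKO mice and -0.160 ± 0.175 in WT mice. In the edgeR test of this difference, genotype by side, 0 of 8308 genes (0.0%) and 0 of the 73 members passed. At an unadjusted p under 0.05 there were 2 members (2.74%), against 3.26% of all genes tested, Ndufa8 (0.42 ± 0.20, SE; adjusted p = 0.998) and Ndufs7 (0.58 ± 0.27; adjusted p = 0.998). The count was 6 without WT mouse 2, and 1 without WT mouse 1, WT mouse 6, BERKO mouse 3 or BERKO mouse 6. The members' median difference was 0.12 with 53 of 73 above 0, against 0.009 and 50.7% for all genes tested. Without WT mouse 1 the members' median was 0.03, with 45 of 73 above 0.

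**Figure D5:**
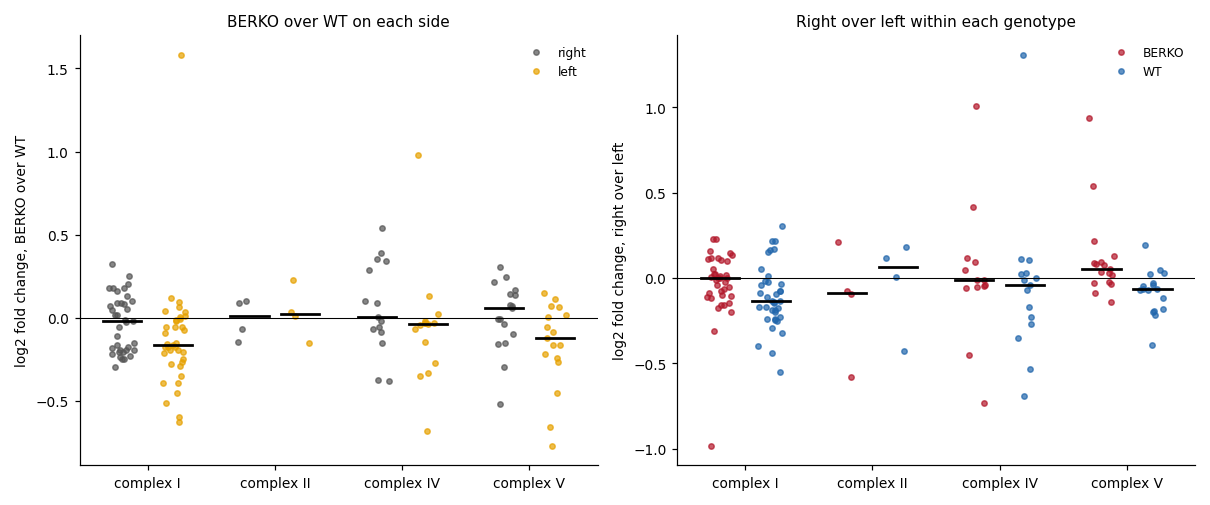
Log2 changes of each subunit gene (points; bars at the medians) by complex: on the left, BERKO over WT in right and in left biopsies; on the right, right over left in BERKO and in WT mice. For complex I most points lie below 0 in the left biopsies (29 of 37), and no point passed the adjusted threshold.

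The other genes of the pathway were read from lists for complex III, assembly, the tricarboxylic acid cycle and regulators. Of 10 genes of complex III and cytochrome c, 1 passed the test: Uqcrb, a subunit that binds ubiquinone, had 67.2 ± 23.3 CPM in BERKO mice and 163.0 ± 26.2 CPM in WT mice (SD, n = 5 and 6) and fell by 1.29 ± 0.21 on the log2 scale (SE; edgeR adjusted p = 0.0057). None of 13 genes tested from the complex I assembly list had an unadjusted p under 0.05. The list also holds Ndufab1, an accessory subunit outside the naming rule. All but 1 of the 13 lay below 0, with a median of -0.33, against 50.8% and -0.007 for all genes tested. Standard errors in the list reached 0.72, for Nubpl, at 4.24 CPM in BERKO mice and 7.82 CPM in WT mice. Of 18 complex IV assembly genes, 3 were lower and 1 was higher at an unadjusted p under 0.05 and none passed the adjusted threshold, where 9.92% of all genes tested had such a p. Coa6 and Cox20, which act in the copper loading of subunit II, had log2 changes of -0.59 and -0.62 (edgeR adjusted p = 0.179 and 0.197). Their groups did not overlap, nor did those of Ndufaf4 in the complex I list (-0.34), against 1.32% of all genes tested. The ATP synthase list (4 tested) held Usmg5, a membrane subunit outside the naming rule, at -0.44 (edgeR adjusted p = 0.319). Of 14 genes of the tricarboxylic acid cycle 1 was higher at an unadjusted p under 0.05, and of 6 regulators tested, Ppargc1a and Esrra among them, none.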

How the data were processed

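Sequencing libraries of 22 biopsies were made with STRT (5′-end counting, 3 lanes, of which BERKO left 5 has 1, ERCC spike-in RNA). Per the submitters' processing notes, reads were aligned with Bowtie and TopHat2 2.0.12 to mm9, and the deposited table holds raw read counts per 5′-end feature and lane, with no normalization by the authors; how reads with several matches were treated was not given in the sources used here. Per the labels, the submitters left out 1 BERKO sample as an outlier. BERKO mouse 1 is not analysed here.

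Lanes were added per biopsy and the 2 biopsies of a mouse per mouse. Features with a single gene symbol (95410 of 112460) were added per symbol, giving 15297 genes; features without one held 4.88% of the endogenous reads, and spike-in and ribosomal rows were left out. Genes were tested with edgeR 4.0.16 (R 4.3.3; filterByExpr, TMM, quasi-likelihood test, Benjamini-Hochberg adjustment over all genes tested), for BERKO against WT per mouse and on each side, right against left with the mouse as a block, and genotype by side. DESeq2 1.42.0, RLE normalization, spike-in scaling, no filter, promoter features alone, leaving out each mouse and a replicate block were alternatives. The fits for genotype per mouse, right against left and genotype by side were checked on simulated counts. These held changes of 2-fold or more and less spread than was estimated over all genes here, so the check does not cover smaller changes. Replicates are mice, the labels' mouse entry ties the right and left biopsy of a mouse, and the labels do not say how litters or days were spread. Members with an unadjusted p under 0.05 in the per-mouse test, and the 3 with the smallest p in each other comparison, were named. The members, their roles and the gene lists were chosen with earlier results of these data known. Promoter letters come from RefSeq tables (GRCm38.p6), and copies were sought with BLAST 2.17.0 in GENCODE M21 transcripts. Values of 1 member are not reported here by name, though it is part of the sums and counts.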

Additional observations from a re-analysis of the deposited data

Results flagged for a closer look

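In 160 groups (the mice of 1 genotype, for the CPM of each of the 74 members, the summed CPM and the mitochondrial share), 11 had 1 mouse far from the others, each time in a member's CPM; chance alone flags about 1 in 20 groups. WT mouse 6 was apart in 4 of them. It was highest for Ndufa4 (2791 CPM, others 2070.0 to 2282), Ndufb2 (345.4 CPM, others 231.4 to 260.9) and Ndufs5 (966.9 CPM, others 785.0 to 833.0), and lowest for Ndufc1 (332.2 CPM, others 377.9 to 394.5). WT mouse 4 was highest for the low isoforms Cox6b2 (35.88 CPM, others 10.55 to 19.74) and Ndufa4l2 (22.83 CPM, others 8.577 to 13.46). WT mouse 1, whose libraries stood apart, was lowest for Cox7a2l (414.6 CPM, others 502.3 to 540.9) and highest for Ndufc2 (877.3 CPM, others 625.5 to 694.5). BERKO mouse 6 was highest for Ndufb2 (274.7 CPM, others 210.4 to 227.5) and Ndufc2 (787.2 CPM, others 511.3 to 577.4). BERKO mouse 2 was highest for Cox8b (14.47 CPM, others 0 to 3.156).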

How the results depend on the processing

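No member passed the adjusted threshold under any alternative run, and no named member's change turned its sign. Scaling to the spike-ins moved the median log2 change of all genes to 0.19, and with it that of the members to 0.19, of complex I to 0.19, of complex II to 0.21, of complex IV to 0.20 and of complex V to 0.17; the 6 members with an unadjusted p under 0.05 were then all higher in BERKO mice. On the right, the count of members with an unadjusted p under 0.05 was 2 with the replicate block and 3 with the library of WT mouse 1 left out, against 5. For genotype by side it was 0 with RLE normalization, against 2. Leaving out each mouse in turn, the count ranged from 4 to 10 per mouse, against 9, from 3 to 6 on the right, from 6 to 11 on the left, from 3 to 5 for right against left and from 1 to 6 for genotype by side. The medians then ranged from -0.06 to 0.02 for all members, -0.05 to 0.02 for complex I, -0.03 to 0.07 for complex II, -0.07 to 0.04 for complex IV and -0.08 to 0.02 for complex V, and the mitochondrial difference from -0.925 to -0.806 points.

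BERKO and WT mice of the same number did not deviate together (correlations of -0.0392 to 0.091). The right and left libraries of a mouse, which the labels tie, correlated at -0.158 to 0.458. Such correlations therefore cannot tell whether the numbers pair mice across genotypes. With the replicate block 8 members had an unadjusted p under 0.05, against 9. The cause of these shifts was not tested. The 6 members whose intervals reached beyond 2-fold had the lowest levels, at 5.39 to 18.97 CPM.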

Other observations

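The members at 100 CPM or more varied together from biopsy to biopsy more than all genes above that floor did, as a description with no test. The floor does not match the genes by level. Over the 22 biopsies, as deviations from the group means of log2(CPM + 1), the median correlation between pairs was 0.197 for the 65 members at 100 CPM or more and 0.024 for the 1899 genes at that level; the points share library and depth. It was 0.191 in complex I, 0.241 in complex II, 0.244 in complex IV and 0.224 in complex V. The members' mean deviation was lowest in WT left 2 (-0.245), a library that stood apart, and highest in BERKO right 6 (0.172). Ndufb9 and Ndufb3, of complex I, were among those that followed the mean of the other members closely (0.787 and 0.696), and Ndufa7, also of complex I, did not (-0.222).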
